A study of Mus musculus with 8 samples.

Results

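Ceramide and barrier lipid synthesis was followed through 10 genes, chosen by symbol with earlier results of these data known: the serine palmitoyltransferase subunit Sptlc2, the ceramide synthases Cers2, Cers3 and Cers4, the fatty acid elongases Elovl1, Elovl4 and Elovl7, the dihydroceramide desaturase and hydroxylase Degs2, the glucosylceramide synthase Ugcg and the lipid transporter Abca12. All 10 were among the 55276 symbols of the deposited count table, and all 10 had enough counts to be tested, as did 17344 genes in all. The libraries came from esophageal epithelium of C57BL6 mice aged 14 to 15 weeks, 2 females (Female1, Female2) and 2 males (Male1, Male2). Living cells that carried integrin beta-1 were sorted by Cyto-ID, a dye of autophagic vesicles, into a dim fraction (Cyto-ID Low) and a bright fraction (Cyto-ID High). Each animal gave 1 library of each fraction, or 8 libraries. No genotype or drug is given for the mice, and each difference below is one between sorted cells of the same mice.

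Ceramide is a sphingoid base joined to a fatty acid. Serine palmitoyltransferase makes the precursor of the base from serine and palmitoyl-CoA, elongases lengthen fatty acids, and each ceramide synthase joins acyl chains of its own preferred lengths to the base. In stratified epithelium the longest ceramides are glucosylated, loaded into lamellar granules and secreted between the upper cells, where they form a water barrier, and loss of several of these genes causes ichthyosis in the skin.

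Library totals were 26285150 to 28599954 counts in Cyto-ID Low and 27486049 to 29301054 in Cyto-ID High. Levels are given as CPM, the counts scaled to a common library size with TMM factors, which were 1.16 to 1.30 in Low and 0.679 to 0.944 in High. The labels call the cells squamous and, in the sorting protocol, basal, and keratinocyte markers were present in both fractions. All 7 markers of basal keratinocytes listed were lower in High, where their summed level was 2666 to 4369 CPM against 20550 to 24410 in Low. All 8 suprabasal markers were higher, at 143100 to 240400 CPM summed against 8594 to 25520. The genes below were therefore measured in fractions that also differed in these layer markers. The part of that difference in each result was not tested, and in bulk RNA more cells of a type and more RNA per cell cannot be told apart. Gastric markers were high in both libraries of Female2 only, and the High library of Male2 had the lowest sum of fibroblast (36.6 CPM, against 146.5 to 480 in the other libraries), leukocyte (24.9, against 38.8 to 96.8), endothelial (2.57, against 7.75 to 26.1), muscle (1.29, against 15.15 to 46.4) and adipocyte markers (1.08, against 262 to 784). The adipocyte sum was nearly all Fabp4. Of the leukocyte, fibroblast, endothelial and muscle markers tested, Cd68 was called higher in High and Dcn lower (−2.87 on the log2 scale), and the others were not called.

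In Cyto-ID High 8 of the 10 were higher, Cers2 was lower and Degs2 was not called (edgeR's quasi-likelihood fit, with a Benjamini-Hochberg threshold of 0.05 over all genes tested). Over all 17344 genes 23.4% were called higher and 25.3% lower. The median log2 fold change of the 10 was 2.48, and that of all genes tested was −0.09. The CPM of all 4 High libraries lay above all 4 Low libraries for the same 8 genes and below them for Cers2, patterns seen in 23.6% and 24.9% of all genes. With both libraries of Female2 or of Male2 left out, alternatives added after the data were seen, the counts were again 8 higher and 1 lower.

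**Figure D1:**
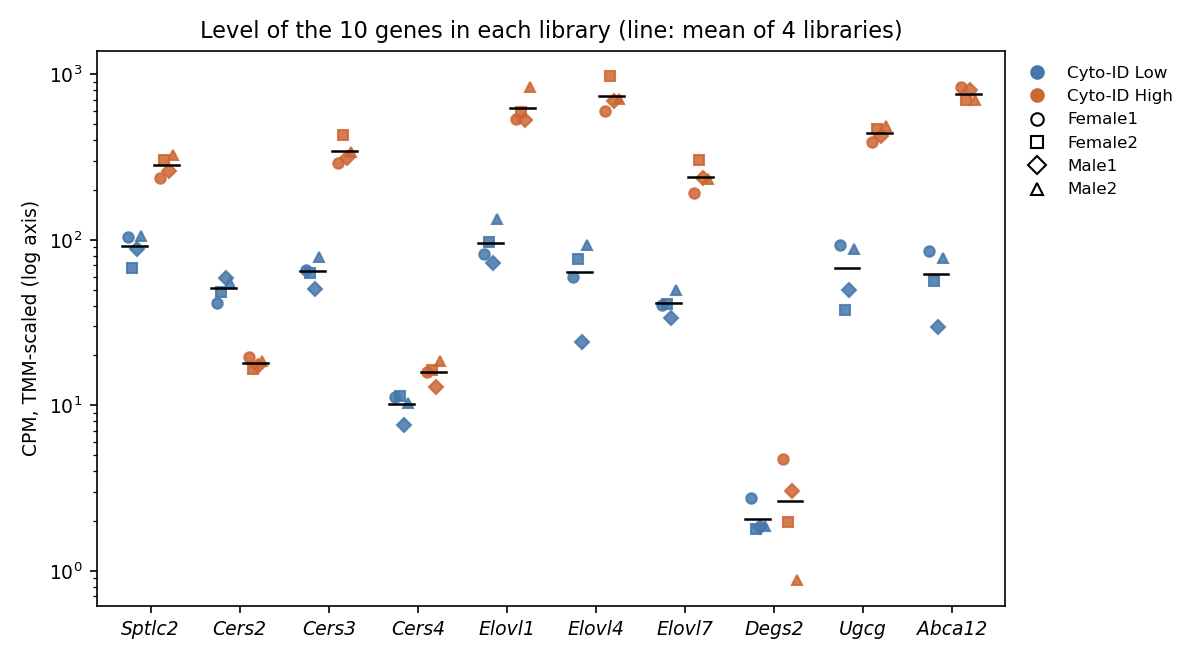
Level of each gene in CPM (log axis) in the 4 Cyto-ID Low and 4 Cyto-ID High libraries, with a symbol for each animal and a line at the mean. The fractions are separate for every gene but Degs2, and Cers2 is the gene whose High libraries (16.6 to 19.6 CPM) lie below the Low ones (41.5 to 58.7 CPM).

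The ceramide synthases moved in opposite directions. Cers2, which makes ceramides with very long acyl chains in many tissues (chromosome 3, 95314791 to 95323599, plus strand, build GRCm38), had 41.5, 48.2, 58.7 and 55.0 CPM in the Low libraries of Female1, Female2, Male1 and Male2, and 19.6, 16.6, 17.2 and 18.6 CPM in their High libraries. It fell in all 4 animals, and the High libraries lay close together. The log2 fold change was −1.49 (edgeR, SE 0.14 and adjusted p 2.86e-05), a 2.81-fold fall. Exons of Setdb1 and 6330562C20Rik on the other strand overlap 5.96% of its exon bases, and Setdb1, at 46.5 CPM in Low and 37.4 CPM in High, was above Cers2 in each High library.

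Cers3 is the synthase of the ultra-long-chain ceramides of the skin barrier and is also used in the testis (chromosome 7, 66743504 to 66823691, plus strand). In the same order of animals it had 65.7, 62.6, 50.3 and 78.9 CPM in Low and 291, 430, 313 and 341 CPM in High. Every High library was more than 3 times above every Low library. The log2 fold change was 2.42 (edgeR, SE 0.20 and adjusted p 1.83e-05), or 5.33-fold.

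Cers4 (chromosome 8, 4493026 to 4531680, plus strand), another synthase of the family, was the lowest of the 3 and changed least. It had 7.61 to 11.4 CPM in Low and 12.9 to 18.5 CPM in High, from 245 to 414 counts in a library. Genes on the other strand overlap 8.97% of its exon bases, and both (Gm36956 and Vmn2r-ps89) had 0 counts in the deposited table. The log2 fold change was 0.65 (edgeR, SE 0.17 and adjusted p 0.0108), and Cers4 was higher in 4 of 4 animals. This call depends on the scaling. With libraries scaled by total counts alone, which moved the median of all genes by −0.55 on the log2 scale, the log2 fold change of Cers4 was 0.08 (edgeR adjusted p 0.674), and over all alternatives its adjusted p ran from 0.00131 to 0.674.

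Shares within a family do not depend on how libraries are scaled to each other. Counts were divided by the length of each gene's merged exons, and the 6 ceramide synthases were summed in each library. Cers3 took 39.7% ± 5.1 of the sum in Low and 84.7% ± 1.9 in High, and Cers2 took 27.9% ± 3.9 and 4.03% ± 0.82 (SD, n = 4 each). The library with the highest Cers3 share in Low had 43.8% and the one with the lowest in High had 83.1%, so the fractions were far apart. The share of Cers4 went from 1.67% ± 0.33 to 1.05% ± 0.18, although its CPM rose, as the family sum rose with Cers3. Its fractions overlapped on the longest coding transcript (1.71% and 1.28%) and with counts not divided by length, where its share was over 3 times as large (5.125% and 3.70%). Among the paralogs outside the 10 genes, Cers5 went from 23.3% ± 0.8 to 8.60% ± 1.23 and Cers6 from 7.34% ± 0.93 to 1.59% ± 0.17 (SD, n = 4 each), and Cers1 took at most 0.144% in any library.

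The per-length ratio of Cers3 to Cers2 was 0.968 to 1.79 in the Low libraries and 16.8 to 29.3 in the High libraries. The 2 synthases were thus at similar levels in Low, and the order between them there rests on the length used. With the longest coding transcript as the length, added after the data were seen, Cers3 had 31.3% and Cers2 36.3% of the sum in Low, against 80.1% and 6.30% in High. In CPM, Cers5 was at 40.95 ± 3.98 in Low and 37.6 ± 5.9 in High, with a log2 fold change of −0.12 (edgeR, SE 0.13 and adjusted p 0.495). Under total counts it was −0.70 (edgeR adjusted p 0.000312). Cers6 fell by 0.89 on the log2 scale (edgeR, SE 0.14 and adjusted p 0.000517).

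**Figure D2:**
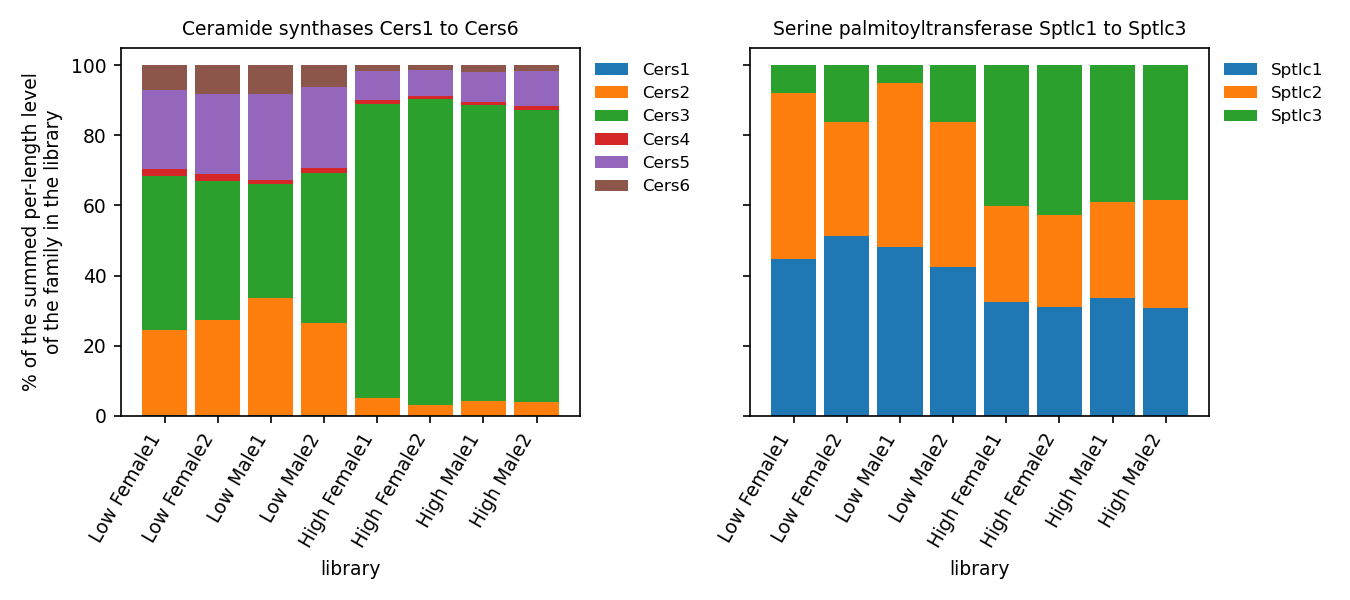
Stacked bars give the percentage of the summed per-length level of the family that each gene takes in each library, for ceramide synthases (left) and the large subunits of serine palmitoyltransferase (right). Cers3 takes 32.4% to 43.8% in Low and 83.1% to 87.5% in High, and Sptlc3 4.97% to 16.2% and 38.4% to 42.8%.

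Elovl1, Elovl4 and Elovl7 all rose. Elovl4 makes the ultra-long fatty acids that Cers3 uses (chromosome 9, 83778692 to 83806277, minus strand). It had 59.7, 76.9, 24.0 and 93.3 CPM in the Low libraries of Female1, Female2, Male1 and Male2, and 600, 977, 693 and 705 CPM in High. The Low library of Male1 was lower than the other Low libraries, and the rise was largest in that animal, at 4.85 log2 CPM against 2.92 to 3.67 in the other animals. The fitted log2 fold change was 3.55 (edgeR, SE 0.39 and adjusted p 7.12e-05), or 11.7-fold.

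Elovl1 lengthens saturated very long chains (chromosome 4, 118428093 to 118432953, plus strand). It had 72.6 to 132.7 CPM in Low and 526 to 842 CPM in High, with the highest value of each fraction in Male2. Its rise was the most even of the 10 genes, 2.62 to 2.86 log2 CPM in the 4 animals, and the fit gave 2.70 (edgeR, SE 0.24 and adjusted p 2.37e-05). Of its exon bases, 1.94% overlap exons of Cdc20 on the other strand. Cdc20 was at 112 CPM in Low and 13.7 CPM in High, and it fell by 3.03 on the log2 scale (edgeR, SE 0.37 and adjusted p 0.000122). The part of shared reads in the Elovl1 counts was not tested.

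Elovl7, an elongase that acts on saturated long chains (chromosome 13, 108214404 to 108285683, plus strand), had 33.9 to 49.99 CPM in Low and 191 to 305 CPM in High. The log2 fold change was 2.55 (edgeR, SE 0.20 and adjusted p 1.61e-05), or 5.84-fold. In the order of libraries within Low, Male1 was the lowest and Male2 the highest for Elovl1, Elovl4 and Elovl7, and the same libraries had the lowest and the highest summed suprabasal markers, 8594 and 25520 CPM. Within High the suprabasal sum was lowest in Female1 (143100 CPM) and highest in Male2 (240400 CPM). There Elovl1 was lowest in Male1 and highest in Male2, and Elovl4 and Elovl7 were lowest in Female1 and highest in Female2. The part of the layer markers in these orders was not tested.

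Within the elongase family, Elovl1 to Elovl7, the share of Elovl4 went from 22.4% ± 6.6 of the summed per-length level in Low to 38.9% ± 4.4 in High (SD, n = 4 each), with no overlap between the fractions. Elovl1 held 39.4% ± 2.8 and 36.5% ± 6.3, and its ranges overlapped. Elovl7 held 11.7% ± 1.4 and 9.52% ± 0.98. Its fractions did not overlap on this length but did on the longest coding transcript. Elovl6, which lengthens palmitate, rose by 2.10 (edgeR, SE 0.19 and adjusted p 2.74e-05), and Elovl5, an elongase of polyunsaturated chains, by 2.03 (edgeR, SE 0.18 and adjusted p 2.17e-05). Elovl3 was low and not called, with a log2 fold change of 0.01 (edgeR, SE 0.75 and adjusted p 0.992), higher in 2 animals and lower in 2, and Elovl2 had too few counts to be tested.

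Sptlc2 encodes a catalytic subunit of serine palmitoyltransferase, the enzyme that commits serine to sphingolipids (chromosome 12, 87305058 to 87388355, minus strand). It had 104, 67.8, 87.8 and 106 CPM in the Low libraries of Female1, Female2, Male1 and Male2, and 238, 304, 261 and 325 CPM in High. Every High library lay well above the highest Low library. The log2 fold change was 1.63 (edgeR, SE 0.19 and adjusted p 8.44e-05), or 3.09-fold.

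Its partner Sptlc1, with which Sptlc2 forms the enzyme, rose by nearly the same amount, 1.67 (edgeR, SE 0.14 and adjusted p 1.99e-05). Sptlc3, the alternative catalytic subunit, was at 8.91 ± 5.13 CPM in Low and 142 ± 23 CPM in High (SD, n = 4 each), and its fitted rise was 3.99 (edgeR, SE 0.43 and adjusted p 5.97e-05). Sptlc2 therefore rose in level while its share of the 3 subunits went down, from 42.1% ± 6.9 to 27.9% ± 2.0, and that of Sptlc3 went from 11.3% ± 5.7 to 40.1% ± 1.9 (SD, n = 4 each). The per-length ratio of Sptlc3 to Sptlc2 was 0.106 to 0.499 in Low and 1.25 to 1.64 in High. That Sptlc3 passed Sptlc2 in High rests on dividing by length. With the longest coding transcript the shares in High were 34.8% for Sptlc3 and 28.45% for Sptlc2, but with counts not divided by length they were 25.1% and 49.85%, after 6.12% and 63.0% in Low. On each of these bases the share of Sptlc2 was lower, and that of Sptlc3 higher, in every High library than in any Low library.

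Degs2 turns dihydroceramide into phytoceramide by adding a hydroxyl group (chromosome 12, 108678711 to 108702315, minus strand). It was hardly expressed, with 2.75, 1.79, 1.83 and 1.87 CPM in the Low libraries of Female1, Female2, Male1 and Male2 and 4.71, 1.96, 3.05 and 0.875 CPM in High. These values rest on 17 to 122 counts, the fractions overlap, and 3 animals were higher and Male2 lower in High. The log2 fold change was 0.33 (edgeR, SE 0.42 and adjusted p 0.555). It changed sign under total counts, to −0.15, and to −0.016 without the High library of Female1.

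The High libraries had the same order for Degs2 as for the summed fibroblast markers, 456 CPM in Female1, 323 in Male1, 146.5 in Female2 and 36.6 in Male2, and as for the leukocyte, endothelial, muscle and adipocyte sums. The adipocyte sum was nearly all Fabp4, at 784 CPM in the High library of Female1 and 1.03 CPM in that of Male2. In Low, Degs2 had the same order as the leukocyte sum (80.2 CPM in Female1, 67.7 in Male2, 53.2 in Male1 and 47.2 in Female2). The endothelial, muscle and adipocyte sums were, like Degs2, highest in Female1 there, and the fibroblast sum was highest in Male2 (480 CPM). The part of other cells in the Degs2 counts was not tested. Of its exon bases 10.8% overlap exons of Evl on the other strand, and Evl was at 5.31 to 10.4 CPM, above Degs2 in every library. Whether the counting used the strand is not given in the sources used here, so the level of Degs2 is uncertain. Its paralog Degs1, the general dihydroceramide desaturase, was at 118 ± 27 CPM in Low and 585 ± 132 CPM in High (SD, n = 4 each), a fitted rise of 2.31 (edgeR, SE 0.23 and adjusted p 3.95e-05). Degs2 made up 1.78% ± 0.53 of the per-length sum of both genes in Low and 0.518% ± 0.416 in High (SD, n = 4 each), or 0.334% in High without the library of Female1.

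Ugcg adds glucose to ceramide, the form in which ceramides enter lamellar granules (chromosome 4, 59189257 to 59222833, plus strand). It had 93.7, 37.8, 49.8 and 88.2 CPM in the Low libraries of Female1, Female2, Male1 and Male2, and 389, 471, 425 and 485 CPM in High. The Low libraries were spread over more than 2-fold, while the High libraries lay close together, so that the rise per animal ran from 2.05 log2 CPM in Female1 to 3.63 in Female2. The fitted value was 2.72 (edgeR, SE 0.30 and adjusted p 7.11e-05).

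Abca12 carries glucosylceramides into lamellar granules, and its loss causes harlequin ichthyosis in humans (chromosome 1, 71242276 to 71414910, minus strand). It had 85.1, 56.5, 29.8 and 77.7 CPM in the Low libraries and 844, 703, 801 and 704 CPM in the High libraries, in the same order of animals. As with Elovl4, the Low library of Male1 was the lowest, and the rise was largest there, at 4.74 log2 CPM against 3.18 to 3.64. The fitted log2 fold change was 3.63 (edgeR, SE 0.31 and adjusted p 2.16e-05), or 12.4-fold, the largest of the 10 genes in this fit.

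**Figure D3:**
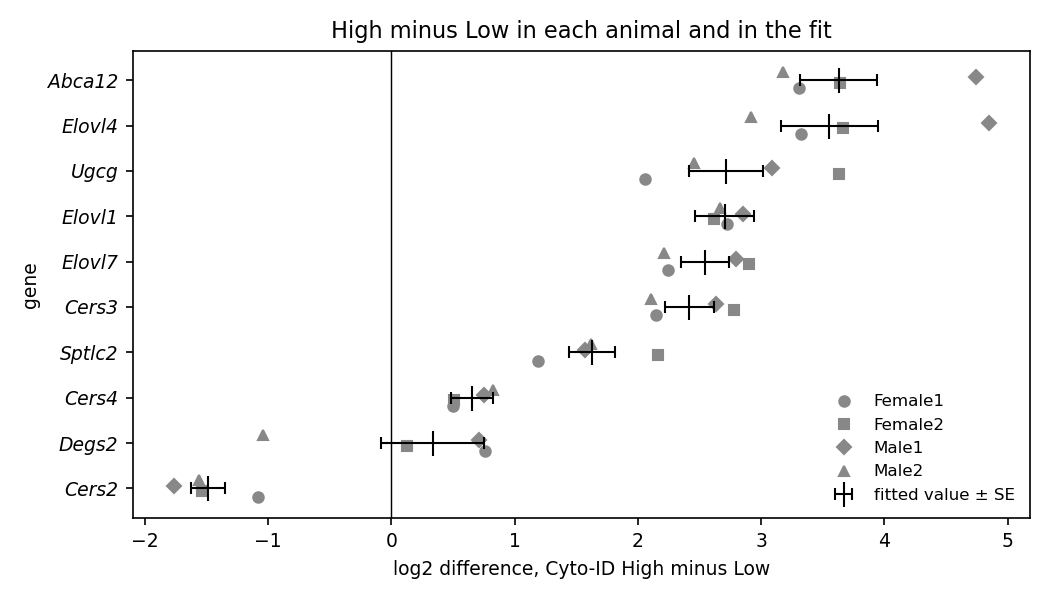
Difference in log2 CPM between the High and Low library of each animal (grey symbols) and the fitted log2 fold change with its SE (black), ordered by the fitted value. Abca12 and Elovl4 rose most (3.63 and 3.55), Degs2 has animals on both sides of 0, and Cers2 is negative in all 4 animals.

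Per length, as CPM per kilobase of merged exons, Elovl1 had the highest mean level of the 10 genes in Low, 35.2 ± 9.7, ahead of Elovl4 (21.0 ± 9.8) and Cers3 (19.8 ± 3.6). The ranges of each gene and the next overlapped from Elovl1 down to Elovl7, so the order of neighbours is not resolved by these ranges. Elovl1 (26.6 to 48.7) lay above Cers3 (15.45 to 24.2) without overlap. In every Low library Elovl4 was below Elovl1, at a per-length ratio of 0.298 to 0.716. Abca12 (4.20 ± 1.67) lay below Elovl7 (10.3 ± 1.7) without overlap on this length, but not on the longest coding transcript, where Abca12 reached 9.31 and Elovl7 began at 8.44. Cers4 (0.826 ± 0.141) and Degs2 (0.798 ± 0.178) were lowest.

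In High, Elovl4 (246 ± 54) and Elovl1 (229.5 ± 54.0) were highest and overlapped, and both were above Cers3 (106 ± 19). Cers3, Ugcg, Elovl7 and Abca12 followed with overlapping neighbours, from 106 down to 51.5 ± 4.8. Sptlc2 (34.7 ± 4.9), Cers2 (4.895 ± 0.368) and Cers4 (1.29 ± 0.19) came next without overlap (SD, n = 4 for each level). On the longest coding transcript Sptlc2 overlapped Elovl7 in High (35.4 to 48.4 and 47.6 to 75.9). By mean, Cers2 went from place 4 of 10 in Low to place 8 in High. With the longest coding transcript as the length it was at place 2 in Low and again at place 8 in High, and Abca12 went from place 8 to place 5.

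Beyond the difference between the fractions, some of the genes also varied together from library to library. Each library's log2 CPM was taken relative to the mean of its fraction. Over the 8 libraries these deviations had a Pearson r of 0.961 for Cers3 and Elovl7, 0.895 for Sptlc2 and Ugcg and 0.856 for Cers3 and Elovl4. Cers3 and Elovl7 were both highest in the High library of Female2 (0.34 and 0.36) and in the Low library of Male2 (0.31 and 0.29), and both lowest in the Low library of Male1 (−0.34 and −0.27) and the High library of Female1 (−0.22 and −0.31). For Elovl7, Cers3 had the highest r of 11042 genes with a mean of at least 5 CPM, and for Cers3, Elovl7 ranked 3. For Sptlc2, Ugcg ranked 150, and for Ugcg, Sptlc2 ranked 24.

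Among the 8 genes that rose, all 28 pairs had a positive r of deviations, with a median of 0.53. These are descriptions over 8 libraries from 4 animals, which share library scaling, depth and layer composition, and these pairs were singled out after their values were seen. When the log2 CPM themselves were compared over the 8 libraries, the gap between the fractions set most of the likeness. By that measure the closest genes to Cers3 were Elovl7 (r 0.999) and Serpinb1a (r 0.998), those to Elovl4 were Thsd1 and Dsg1c (both r 0.999), those to Abca12 were Calm4 (r 0.998) and Adgrf2 (r 0.997), and those to Cers2 were Rab34 (r 0.996) and Plod3 (r 0.995). For Sptlc2 they were Npepps and Zdhhc5, for Elovl1 Thop1 and Pdlim2, for Elovl7 Cers3 and Sptlc1, and for Ugcg Cpeb2 and BC016579, with r of 0.996 to 0.999. Cers4 was closest to Glrx5 (r 0.966) and Eif4ebp1 (r 0.965), and Degs2 to Micos10 (r 0.987) and Krt6b (r 0.964). For Cers3, 1394 of 10006 genes had an r over 0.95, but only 12 of 10007 did for Degs2 and 9 of 10006 for Cers4.

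**Figure D4:**
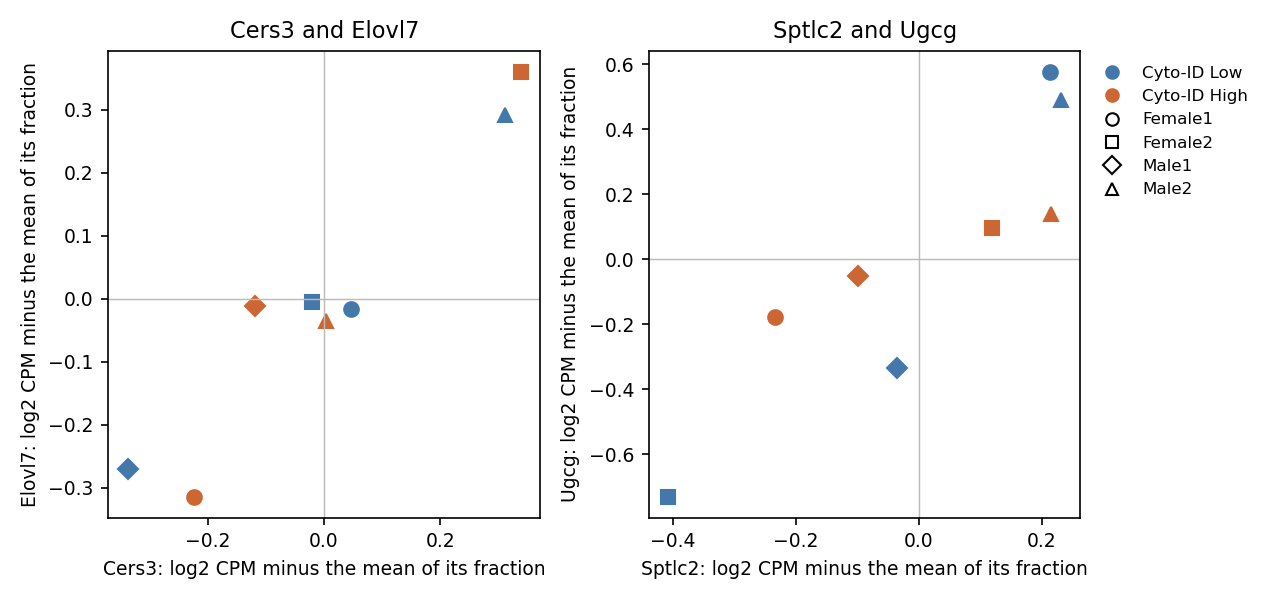
Deviation of each library's log2 CPM from the mean of its fraction, for Cers3 against Elovl7 (left, r 0.961) and Sptlc2 against Ugcg (right, r 0.895); colour gives the fraction and the symbol the animal. Both pairs spread along a rising line in both fractions, and the Low libraries of Ugcg reach farthest, from −0.73 to 0.58.

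The sequences before the start sites of Cers3 and Elovl7 are shown because these 2 genes kept closest to each other. Both are the 250 bases before the RefSeq start (build GRCm38.p6, plus strand), at chr7:66743254-66743503 and chr13:108214154-108214403, and neither holds an annotated exon. Capitals mark the letters CCACCC, the box that Krüppel-like factors can bind.
Cers3: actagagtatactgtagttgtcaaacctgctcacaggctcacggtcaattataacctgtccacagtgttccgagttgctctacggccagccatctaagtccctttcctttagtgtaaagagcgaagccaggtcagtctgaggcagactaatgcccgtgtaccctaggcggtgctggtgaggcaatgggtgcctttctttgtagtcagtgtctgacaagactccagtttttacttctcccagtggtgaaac
Elovl7: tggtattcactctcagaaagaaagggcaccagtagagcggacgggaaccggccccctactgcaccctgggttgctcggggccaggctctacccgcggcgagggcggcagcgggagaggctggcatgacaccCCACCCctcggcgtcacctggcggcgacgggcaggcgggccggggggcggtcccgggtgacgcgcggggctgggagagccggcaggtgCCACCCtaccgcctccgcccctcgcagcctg
Elovl7 holds the box at 119 and 31 bases before the start, and Cers3 holds none.

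The windows searched reached from 250 bases before to 50 after each start, and matches on both strands counted. All 10 genes had at least 1 of the 32851 windows. CCACCC, found in 31.5% of all windows, was present for Sptlc2, Cers2, Elovl1 and Elovl7, so both for genes that rose and for the one that fell. The Grainyhead-like motif AACCNGTT (2.09% of all windows), the AP-1 motif TGANTCA (7.81%) and a direct repeat bound by nuclear receptors (0.0396%) were found for none of the 10. The window of Cers3 had 50.7% G and C and that of Abca12 51.3%, near the median of all windows, 52.7%, while those of Elovl7 (74.0%), Elovl4 (71.0%) and Ugcg (81.3%) were far above it. So was 1 window of Cers2 (75%), the gene that fell, and 1 of Elovl1 (70.7%), while their other windows had 54.3% and 59%. A match of letters is a description and not a bound site.

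The rest of the pathway was read from a list of 58 genes in 6 roles. The list was chosen with earlier results of these data known, so its shares beside those of all genes are a description. Of these, 56 were tested, 35 were higher and 3 lower in Cyto-ID High (edgeR adjusted p under 0.05), or 62.5% and 5.36% against 23.4% and 25.3% of all genes tested. Their median log2 fold change was 1.28, beside −0.09 for all genes tested. Under scaling by total counts alone 30 were higher and 7 lower, where 2194 of all 17344 genes tested were higher and 8514 lower.

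The genes of acylceramide and the lipid envelope had the highest median of the 6 roles, 3.16, and 8 of 9 rose. Alox12b, the lipoxygenase that oxidizes acylceramides, was at 70.8 ± 48.1 CPM in Low and 1276 ± 304 CPM in High (SD, n = 4 each), a fitted rise of 4.17 (edgeR, SE 0.57 and adjusted p 0.000232). Its Low libraries ran from 16.4 CPM in Male1 to 128.5 CPM in Male2, as for Elovl4. The ninth gene, the fatty acid hydroxylase Fa2h, was near 1.46 CPM in Low and 1.83 CPM in High and was not called (log2 fold change 0.33, with SE 0.39 and adjusted p 0.535 from edgeR).

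Among the first steps of sphingolipid synthesis 5 of 8 genes rose and 1 fell, with a median of 0.95. The gene that fell was Ormdl3, an inhibitor of serine palmitoyltransferase, with 55.9 ± 8.4 CPM in Low and 24.6 ± 4.1 CPM in High (SD, n = 4 each) and a fitted value of −1.19 (edgeR, SE 0.16 and adjusted p 0.000203). Its paralogs differed from it. Ormdl2 was among the genes that rose, and Ormdl1 had a log2 fold change of 0.49 (edgeR, SE 0.19 and adjusted p 0.0562), and was called with the animal as a block (edgeR adjusted p 0.0388). In the elongation cycle 6 of 9 tested genes rose and 0 fell, with a median of 1.46. They were Elovl5, Elovl6, Hsd17b12, Hacd2, Hacd3 and Tecr, while Elovl3, Hacd1 and Hacd4, all with means under 2 CPM in both fractions, were not called. Of the 3 tested ceramide synthases and desaturases outside the 10 genes, Degs1 rose, Cers6 fell and Cers5 was not called, with a median of −0.12.

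Head groups and transfer were mixed, with 3 of 9 genes higher, 1 lower and a median of 0.42. Gltp, a glycolipid transfer protein, rose by 2.71 (edgeR, SE 0.30 and adjusted p 7.25e-05). The sphingomyelin synthase Sgms2 fell by 1.83 (edgeR, SE 0.44 and adjusted p 0.00645), although its Low library of Female2, at 3.13 CPM, lay within the High range of 2.66 to 4.84 CPM. Of the 18 genes of ceramide release and breakdown 12 rose and 0 fell, with a median of 0.81. Acer1, a ceramidase of the epidermis, was at 7.28 ± 4.33 CPM in Low and 124 ± 25 CPM in High (SD, n = 4 each), a fitted rise of 4.08 (edgeR, SE 0.45 and adjusted p 7.02e-05). With the animal as a block Acer3 was no longer called (edgeR adjusted p 0.0557), Sphk1 (0.017) and Sgpp1 (0.041) were called higher and Galc (0.0239) lower.

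**Figure D5:**
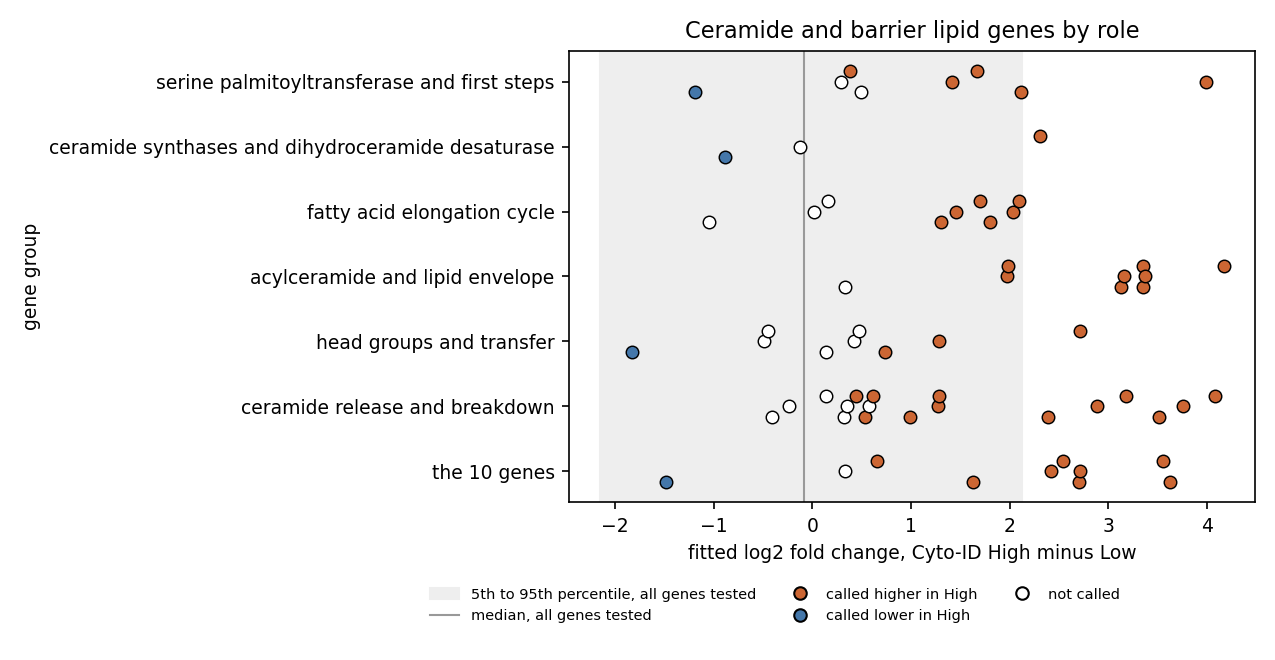
Fitted log2 fold change of each tested gene, by role, with the 10 genes in the lowest row; fill gives the call, the grey band the 5th to 95th percentile of all genes tested and the grey line their median. The acylceramide group lies farthest to the right, with a median of 3.16, and head groups and transfer lie on both sides of 0, with a median of 0.42.

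Markers of cells that also make these lipids were checked. Of the 6 adipocyte markers, Adipoq, Plin1, Cidec, Lep and Retn were at or below 0.146 CPM on average in both fractions, and only Fabp4 was abundant, at 322 to 626 CPM in Low and at 784, 262, 524 and 1.03 CPM in the High libraries of Female1, Female2, Male1 and Male2. Of the 6 sebaceous gland markers, Mc5r and Awat1 were at or below 0.332 CPM on average, Far2 (6.25 CPM in Low, 37.2 CPM in High) and Awat2 (1.31 and 2.36 CPM) were called higher in High, and Elovl3 and Soat1 were not called. Soat1 was at 4.80 CPM in Low and 2.06 CPM in High, with High below Low in every library, and was called lower with the animal as a block (edgeR adjusted p 0.0286). The sum of all 6 was 12.6 to 17.0 CPM in Low and 36.3 to 51.4 CPM in High, most of it Far2 in High. The part of such cells in the results was not tested.

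The difference between the fractions was also compared between males and females. In a model with an interaction of sex and fraction, 0 of 17344 genes passed the same edgeR threshold. Unadjusted, 19 genes had a p under 0.05, none of them among the 10, where evenly spread p-values would give 867, so this fit is conservative. With the animal as a block it was 38 genes, again none of the 10, and 0 after adjustment. The male minus female difference in log2 fold change ran from −0.46 (SE 0.89) for Degs2 to 0.36 (SE 0.60) for Abca12. Single libraries moved these values much: Degs2 went to −1.64 without the High library of Male1, and Abca12 to 1.16 and Elovl4 to 1.32 (0.05 with all libraries) without the Low library of Male2, with none passing after adjustment. A difference between the sexes was thus not detected, which does not show that they were alike.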

How the data were processed

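RNA from 8 sorted libraries, 4 per Cyto-ID fraction, was sequenced. A single table of whole-number counts per gene symbol was deposited by the authors, taken here as raw counts from its values. STAR 2.7.3, DESeq2 and the build GRCm38 are named, with no role, per the submitters' processing notes. The counting tool, annotation and strandedness are not given in the sources used here.

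Counts were fitted in R 4.3.3 with edgeR 4.0.16 (filterByExpr, TMM, glmQLFit and glmQLFTest, sex as a covariate, two-sided, Benjamini-Hochberg over 17344 genes, threshold 0.05). SEs come from the fold change and F. log2 CPM used a prior count of 2. The animal name pairs the libraries. Deviations from fraction means correlated at 0.433, 0.316, −0.016 and 0.277 for Female1, Female2, Male1 and Male2, and −0.372 to 0.35 between animals. The main fit had no term for the animal. Its p-values therefore measure the spread between libraries, with the 2 libraries of an animal taken as separate. The fits were tested on simulated data.

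Positions and exon lengths are from GENCODE M21 (GRCm38), promoter windows from RefSeq (GRCm38.p6). Besides the 10 genes, the text names from each role of the pathway list the gene with the largest called rise and fall at a mean of at least 5 CPM, and paralogs. Others (Ormdl1, Ormdl2, Kdsr, Psap, Fa2h, Acer3, Sphk1, Sgpp1, Galc, the elongation cycle genes, Setdb1, Evl and Cdc20) were chosen after their values were seen. Members and lists were chosen with earlier results of these data known. Alternatives were RLE factors, total counts, 2 filters, robust dispersion, DESeq2 1.42.0, limma-voom (limma 3.58.1), no sex term, a replicate block for the animal, and each library left out.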

Additional observations from a re-analysis of the deposited data

Results flagged for a closer look

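Dixon's test for a value far from the rest was applied to 88 sets of 4 libraries. It picks about 1 set in 20 by chance, and 5 were picked. Degs2 was higher in the Low library of Female1, at 2.75 CPM, than in the other Low libraries (1.79 to 1.87 CPM). Ormdl3 was higher in the High library of Male2, at 30.7 CPM, than in the other High libraries (21.65 to 23.1 CPM). The summed sebaceous gland markers were highest in the Low library of Female1, at 17.0 CPM, beside 12.6 to 13.1 CPM. The summed gastric markers (6 of the 7 listed were in the table) were at 17.3 CPM in the Low and 108 CPM in the High library of Female2, where the other libraries had 0.211 to 0.978 CPM. With both libraries of Female2 left out, 8 of the 10 genes were higher and 1 lower, as with all libraries.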

How the results depend on the processing

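Of 190 log2 fold changes of the 10 genes under 19 alternatives, of which the removal of Female2 and of Male2 was added after the data were seen, 187 kept their direction and side of the threshold; the others were Cers4 under total counts (0.08, adjusted p 0.674) and Degs2, which turned to −0.15 under total counts and ran from −0.016 (without the High library of Female1) to 0.62 when single libraries were left out. Total counts gave 2194 genes higher and 8514 lower, so 20.5% of the called genes were higher in place of 48.0%, and 7 other pathway genes lower in place of 3; it turned the sign of 3 of the 38 called pathway genes (Kdsr, Psap and Acer3). With the animal as a replicate block 9336 genes were called in place of 8440, no call among the 10 genes changed, and among the other pathway genes 1 call was lost (Acer3) and 4 gained (Ormdl1, Sphk1, Sgpp1 and Galc). The sex interaction passed for none of the 10 under its alternatives (lowest adjusted p 0.873). Levels under about 1 CPM, as for Degs2 in the High library of Male2, rest on few counts.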
